A study of Mus musculus with 4 samples.

Results

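The hepatocyte bile acid and sterol transporters examined here were 10 genes: Abcb11, Abcb4, Abcc2, Abcc3, Slc10a1, Slco1a1, Slco1a4, Slco1b2, Abcg5 and Abcg8. Every probe set whose only gene symbol in the platform annotation was one of these was taken, which gave 16 of the 22626 probe sets on the array, for 10 of the 12393 genes it names. All 16 were bright enough over the 4 arrays to be tested, 2 of them, both of Slco1b2, only through the GFP arrays. Slco1b2 was read by 5 probe sets, Slc10a1 and Slco1a1 by 2 each, and the other 7 genes by 1 each. The rule that picks the probe sets uses no signal value, but the genes were chosen with earlier results of these data known.

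RNA was measured in mouse liver with Affymetrix microarrays, 1 array for each of 4 samples. The Ad-lipin group (2 arrays) came from grown male mice of strain C57BL6 that had received an adenovirus carrying the beta form of mouse lipin 1. The GFP group (2 arrays) came from mice given an adenovirus with green fluorescent protein, so both groups had been exposed to virus, and all livers were taken 6 days after injection. The label of Ad-lipin replicate 2 gives polyA RNA as its molecule and the other 3 give total RNA. The promoter in the vectors is not given in the sources used here, and the labels do not say whether both samples of a group were different mice. The p-values therefore reflect the spread between samples that may be technical repeats.

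Bile forms when hepatocytes take bile acids up from sinusoidal blood at the basolateral membrane and pump them, with phospholipid and cholesterol, across the canalicular membrane. Slc10a1 (NTCP) and the Slco carriers (OATPs) do the uptake, Abcb11 (BSEP) exports bile acids into the canaliculus, and Abcb4 flips phosphatidylcholine into bile. Abcg5 and Abcg8 are half-transporters that work only as a pair and secrete cholesterol and plant sterols. Lipin 1, made from Lpin1, is a phosphatidate phosphatase of glycerolipid synthesis that also acts as a nuclear coactivator of PPAR alpha.

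The values are MAS5 signals in arbitrary units, comparable between arrays for a probe set but not between probe sets. Summed signals of marker genes, given below, are therefore led by their brightest probe sets. Median signals of all probe sets ran from 617.6 to 675 on the arrays labelled Ad-lipin and from 582 to 746 on the GFP arrays. GFP replicate 2 was least like the others (mean correlation 0.731, against 0.781 to 0.793 for the remaining arrays), and its beta-actin signal at the 3' end was 4.22 times that at the 5' end, a measure of RNA quality. That ratio was 2.85 and 2.86 on the arrays labelled Ad-lipin and 1.77 on GFP replicate 1. Lpin1 signal did not separate the groups. Its dimmer probe set read 2260.5 and 6719 on the arrays labelled Ad-lipin, against 2730 and 1430.2 on the GFP arrays, and its brighter one 3854 and 11087 against 7082 and 4632. Lpin1 on the array labelled Ad-lipin replicate 1 was therefore inside or below the GFP range, and every direction given here rests on the labels. Whether the vector's cDNA holds the target of these probes is not known here.

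The transporter transcripts did not share a direction. Abcg5 (probe set 1419393_at) had the largest positive difference, 2.72-fold, and its partner Abcg8 and the bile salt pump Abcb11 also had both arrays labelled Ad-lipin above both GFP arrays. One of the Slc10a1 probe sets did as well, while 2 of the 5 Slco1b2 probe sets had both arrays labelled Ad-lipin below. Of these 2, 1427825_at was tested only through the GFP arrays, where it was high. With limma, 0 of the 16 probe sets passed an adjusted p under 0.05, where 0% of the 13576 probe sets tested on the whole array passed. At an unadjusted p under 0.05, 2 of the 16 were found by limma, 1 in each direction, and 4.39% of all probe sets tested. Adjusted p-values of the 16 ran from 0.962 to 1.00. Of the 16, 8 differences were positive and 8 negative, with a median log2 difference of 0.05 beside 0.004 over all probe sets tested. That median was 0.33 without Ad-lipin replicate 1, -0.15 without Ad-lipin replicate 2, -0.18 without GFP replicate 1 and 0.51 without GFP replicate 2, so its sign depended on single arrays.

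**Figure D1:**
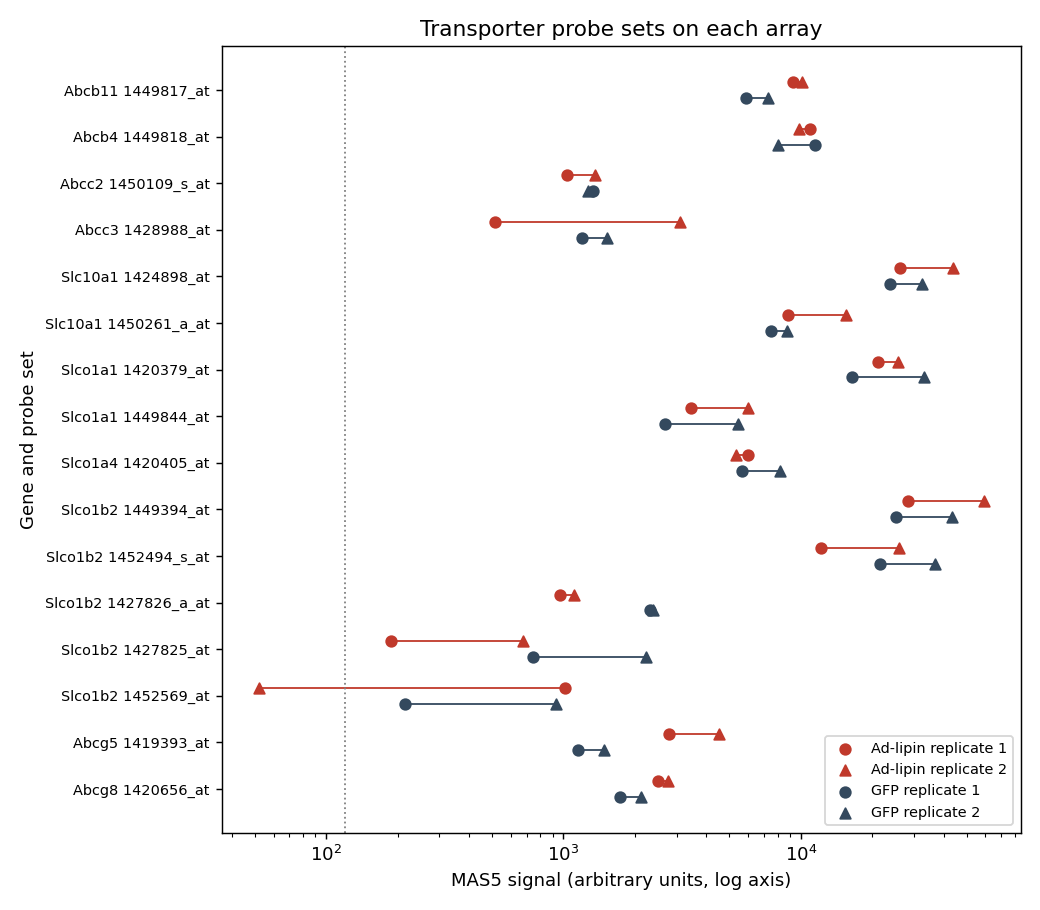
MAS5 signal (arbitrary units, log axis) of the 16 transporter probe sets on each array, with the 2 arrays labelled Ad-lipin in red above the 2 GFP arrays in dark blue, circles for replicate 1 and triangles for replicate 2. Lines join the arrays of a group, and the dotted line marks the floor of 119.5. Abcb11, Abcg5, Abcg8 and the dimmer Slc10a1 probe set show no overlap with the groups ordered Ad-lipin above GFP, and 2 Slco1b2 probe sets show the opposite order. Of these 2, 1427825_at was tested only through the GFP arrays.

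Of the sterol exporters, Abcg5 had the larger difference. Abcg5 signal was 2782 and 4542 on the arrays labelled Ad-lipin replicates 1 and 2, against 1148 and 1484 on GFP replicates 1 and 2. The groups did not overlap, and the lower array labelled Ad-lipin exceeded the higher GFP array by more than 1.5 times. In limma the log2 difference was 1.45 ± 0.47 (SE), with a 95% interval of 0.44 to 2.46 before any correction and an adjusted p of 0.962. Leaving out each array in turn gave between 1.09, without Ad-lipin replicate 2, and 1.80, without Ad-lipin replicate 1. Abcg8 (1420656_at) signal was 2501 and 2747 on the arrays labelled Ad-lipin, against 1729 and 2128 on the GFP arrays. These did not overlap either, but the gap was smaller. The Abcg8 log2 difference was 0.45 ± 0.45 (SE; 95% interval -0.50 to 1.40, limma adjusted p = 0.962), or 1.37-fold, and stayed between 0.30 and 0.60 with any array left out.

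Abcg5 and Abcg8 lie head to head on the mouse genome and share the stretch upstream of both starts, which is shown for that reason. Both genes lay on the same side of the GFP arrays, and any part of the shared stretch in this was not tested. In the RefSeq promoter table (GRCm38.p6) the 109 bases between the starts are chr17:84683012-84683120, given on the plus strand, with Abcg5 read to the left and Abcg8 to the right. Capitals mark the letters TTATCT, the reverse complement of AGATAA, a motif bound by GATA factors that was chosen for this search after the sequence was seen.
Abcg5 and Abcg8 shared upstream region: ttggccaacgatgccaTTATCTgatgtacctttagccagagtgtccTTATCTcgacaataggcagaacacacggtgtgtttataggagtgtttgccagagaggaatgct
The stretch holds that motif at 2 places. Of the 32851 promoter windows of 300 bases in the table, 11.2% hold it at any place on either strand. These windows are longer than the stretch, and how many hold the motif at 2 places was not counted. The stretch holds no AGGTCA, the half-site of many nuclear receptors. A further Abcg8 start in the table lies inside Abcg5.

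Of the canalicular pumps for bile acids, phospholipid and organic anions, Abcb11 alone separated. This bile salt exporter (1449817_at) had signals of 9249.5 and 10080 on the arrays labelled Ad-lipin, against 5861 and 7249.8 on the GFP arrays. Both arrays labelled Ad-lipin were above both GFP arrays. The group means were 9665 ± 587 and 6556 ± 982 (SD, n = 2 each). The log2 difference was 0.57 ± 0.33 (SE), 1.48-fold, with a 95% interval of -0.13 to 1.26 and a limma adjusted p of 0.962. With any array left out it stayed between 0.41 and 0.72.

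Abcb11 is a textbook target of the bile acid receptor FXR, which binds inverted repeats of AGGTCA with a single base between them. The exact element, AGGTCA and its reverse complement TGACCT with any base between, was in 0 of the 11 windows that the table holds for 9 of the 10 genes, and in 3 of all 32851 windows. With 1 mismatch allowed, a setting chosen after the sequences were seen, 27 of all windows (0.0822%) held it, and 2 of the 27 belonged to Abcb11 and Slco1b2. These stretches are shown 5′ to 3′ on the strand of the gene with the match in capitals. The Abcb11 stretch is chr2:69342627-69342719, minus strand, and its last base is 11 bases before the start. The Slco1b2 stretch is chr6:141629390-141629451, plus strand, and its last base is 67 bases before the start in the promoter table. The gene begins earlier in RefSeq, at the base next to the stretch, which was cut there.
Abcb11 upstream stretch: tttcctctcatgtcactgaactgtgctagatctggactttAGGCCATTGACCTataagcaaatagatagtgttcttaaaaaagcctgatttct
Slco1b2 upstream stretch: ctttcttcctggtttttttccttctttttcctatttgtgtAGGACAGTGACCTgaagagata
Counted from 1 at the 5′ end of the element, the substitution is T4C in Abcb11 and T4A in Slco1b2. The half-site AGGTCA alone was in the windows of 5 of the genes, namely Abcb11, Slco1b2, Slco1a1, Slc10a1 and Abcc2, and in 16.3% of all windows. Both are matches of letters and say nothing of binding in these livers. The gene of FXR itself, Nr1h4, named here for its role after its value was seen, read 3158 and 3536 on the arrays labelled Ad-lipin, against 2512 and 3606 on the GFP arrays, a log2 difference of 0.15 ± 0.40 (SE).

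The pumps for phospholipid and organic anions did not separate. Abcb4 (1449818_at), the phospholipid flippase, read 10905 and 9820.3 on the arrays labelled Ad-lipin, against 11491 and 8021 on the GFP arrays. The GFP arrays enclosed both others, and the log2 difference was 0.11 ± 0.33 (SE; 95% interval -0.59 to 0.81, limma adjusted p = 0.979). Abcc2 (MRP2, 1450109_s_at), which exports conjugated bilirubin and other organic anions, read 1031 and 1364 on the arrays labelled Ad-lipin, against 1337 and 1271 on the GFP arrays. Its 95% interval of -1.39 to 1.12 on the log2 scale leaves room for more than a 2-fold difference either way.

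Abcc3 (MRP3, 1428988_at) pumps bile acid conjugates and glucuronides back into blood and is also made by bile duct cells. It read 514 and 3099 on the arrays labelled Ad-lipin, against 1194.5 and 1530.0 on the GFP arrays. The arrays labelled Ad-lipin were the lowest and the highest of the 4, so the group difference of -0.10 ± 0.75 (log2, SE; limma adjusted p = 0.989) averages opposite values. It was 1.20 without Ad-lipin replicate 1 and -1.40 without Ad-lipin replicate 2. Of the bile duct markers listed, 6 were on the array and 5 of these were too dim to test, and their summed signal was 1267 and 1904 on the arrays labelled Ad-lipin, against 1094 and 3046 on the GFP arrays. Their part in the Abcc3 values was not tested.

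**Figure D2:**
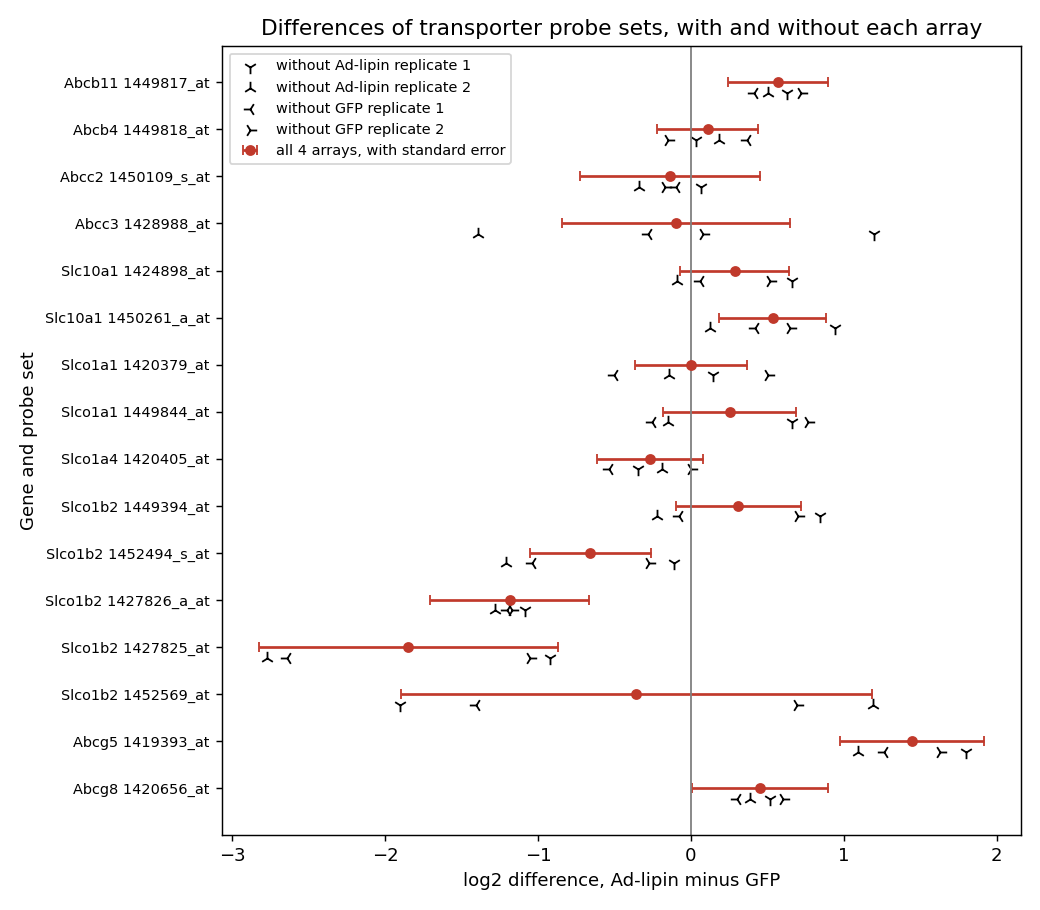
Log2 differences, Ad-lipin minus GFP, of the 16 transporter probe sets with limma's standard error (red points and bars), and the same difference with each array left out in turn (black marks). Abcg5, Abcg8, Abcb11, the dimmer Slc10a1 probe set and 3 Slco1b2 probe sets keep their sign with every array left out, while the black marks of Abcc3 lie at -1.40 and 1.20 without either array labelled Ad-lipin. Of these 3 Slco1b2 probe sets, 1427825_at was tested only through the GFP arrays.

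Among the uptake carriers, Slc10a1, the sodium-dependent bile acid carrier, gave positive differences on both of its probe sets. The brighter (1424898_at) read 26095 and 44004 on the arrays labelled Ad-lipin, against 23713 and 32591 on the GFP arrays, and these ranges overlapped. Its log2 difference was 0.29 ± 0.36 (SE; limma adjusted p = 0.962), and -0.091 without Ad-lipin replicate 2. The dimmer (1450261_a_at) read 8829 and 15575 on the arrays labelled Ad-lipin, against 7474.5 and 8774 on the GFP arrays. These ranges did not overlap, but the lower array labelled Ad-lipin was barely above the higher GFP array. The dimmer probe set's log2 difference was 0.53 ± 0.35 (SE; limma adjusted p = 0.962), and 0.12 without Ad-lipin replicate 2.

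Slco1a1 and Slco1a4, sodium-independent carriers of bile acids and other organic anions, showed no separation. The brighter Slco1a1 probe set (1420379_at) read 21172 and 25780.5 on the arrays labelled Ad-lipin, against 16491 and 33131 on the GFP arrays. Both arrays labelled Ad-lipin lay between the GFP arrays, and the log2 difference was -0.00070 ± 0.37 (SE), with a 95% interval of -0.78 to 0.78. The second Slco1a1 probe set (1449844_at) read 3435 and 6004.5 on the arrays labelled Ad-lipin, against 2668 and 5429 on the GFP arrays, a log2 difference of 0.25 ± 0.43 (SE). Slco1a4 (1420405_at) read 5980.2 and 5353 on the arrays labelled Ad-lipin, against 5654.5 and 8192 on the GFP arrays. Its log2 difference of -0.27 ± 0.35 (SE; limma adjusted p = 0.962) came to 0.00082 without GFP replicate 2.

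Slco1b2, the liver-specific carrier that also takes up bilirubin and many drugs, gave different answers on its 5 probe sets. The brightest, 1449394_at, read 28285 and 59355 on the arrays labelled Ad-lipin, against 25211 and 43345 on the GFP arrays, a log2 difference of 0.31 ± 0.41 (SE). The next, 1452494_s_at, read 12173 and 26072 on the arrays labelled Ad-lipin, against 21569.9 and 36662 on the GFP arrays, a log2 difference of -0.66 ± 0.40 (SE). Both overlapped between the groups, with opposite signs.

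The other 3 Slco1b2 probe sets were dimmer and came from one and the same cDNA record. Probe set 1427826_a_at read 965 and 1107.5 on the arrays labelled Ad-lipin, against 2323 and 2379 on the GFP arrays. Replicates were close within each group here, and the groups were more than 1.5 times apart on every pair of arrays. Its log2 difference was -1.19 ± 0.52 (SE; 95% interval -2.30 to -0.07 before correction, limma adjusted p = 0.962), 2.27-fold lower, and it ran from -1.28 to -1.09 with any array left out. Probe set 1427825_at read 188 and 678 on the arrays labelled Ad-lipin, against 742 and 2230.3 on the GFP arrays, which did not overlap. The geometric mean of its arrays labelled Ad-lipin, 357, was under the 373 that the filter asked for over all 4 arrays, so it was tested only through the GFP arrays, where it was high, and its test supports nothing. It differed by -1.85 ± 0.98 (log2, SE; limma adjusted p = 0.962), and by between -2.77 and -0.92 with an array left out.

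The dimmest Slco1b2 probe set, 1452569_at, read 1018 and 51.9 on the arrays labelled Ad-lipin, against 215.5 and 926 on the GFP arrays. The value of 51.9 was under the floor, the geometric mean with the floor on the arrays labelled Ad-lipin (349) was again under the filter, and the sign of its difference (-0.36 ± 1.54, log2, SE) turned without Ad-lipin replicate 2 or without GFP replicate 2. Of the 5 probe sets, 4 had negative differences and the brightest a positive one, so no single direction can be given for Slco1b2 from this array. Which transcripts of the gene each probe set reads is not known here.

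Across the 16 probe sets, 4 had both arrays labelled Ad-lipin above both GFP arrays, 25.0%, beside 17.1% of all probe sets tested. Another 2 had both below, 12.5%, beside 15.9% of all. Of these 2, Slco1b2 1427825_at was tested only through the GFP arrays, where it was high, and supports nothing. At 1.5-fold on every pair of arrays, 1 probe set was higher (Abcg5) beside 3.98% of all, and 1 lower (Slco1b2) beside 3.62% of all. With 10 genes behind 16 probe sets, these shares are near the background. Taking each gene by its brightest probe set, 6 of the 10 differences were positive and 4 negative, with a median of 0.20 on the log2 scale.

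The transporters also differed between the arrays of a group, and in the same order in both groups. Signal was higher on replicate 2 than on replicate 1 in 13 of the 16 probe sets on the arrays labelled Ad-lipin and in 14 of the 16 on the GFP arrays, against 47.2% and 53.2% of all probe sets tested. In 12 of the 16, 75.0%, replicate 2 was the higher in both groups, as in 26.3% of all probe sets tested and 31.3% of the 1772 that were at least as bright as the median transporter. By the brightest probe set of each gene it was 7 of 10. The median deviation from a probe set's own mean was -0.19 and 0.26 on the log2 scale on the arrays labelled Ad-lipin, against -0.37 and 0.23 on the GFP arrays. Nothing in the labels says that equal replicate numbers share a day, a batch or a litter.

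**Figure D3:**
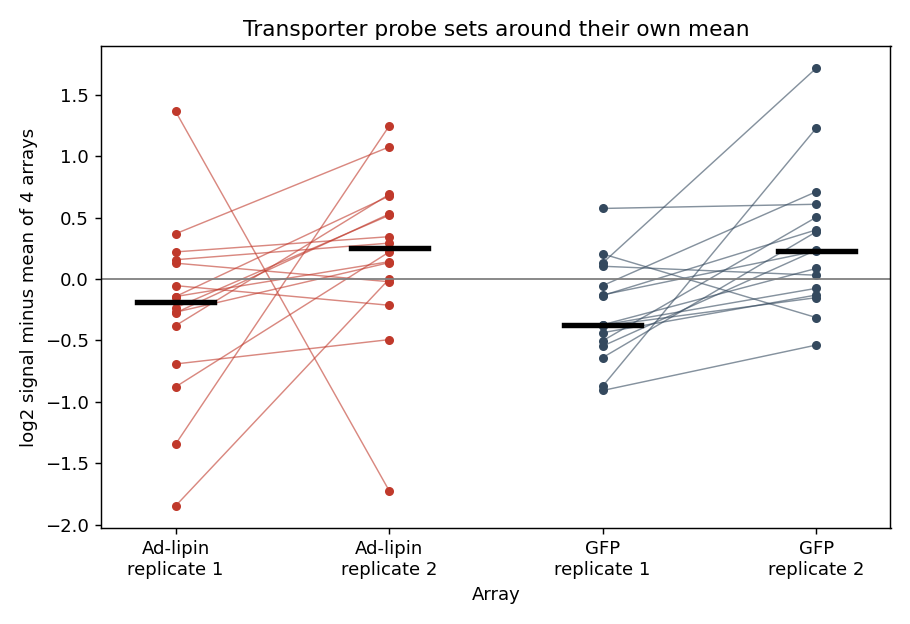
Log2 signal of the 16 transporter probe sets minus their own mean over the 4 arrays, by array, with a line for each probe set within a group and a black bar at the median. The medians are -0.19 and 0.26 on the arrays labelled Ad-lipin replicates 1 and 2, and -0.37 and 0.23 on GFP replicates 1 and 2, so replicate 2 is the higher in both groups.

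Markers of hepatocytes, the cells that make these carriers, were bright on all arrays. The summed signal of the 11 measured markers was 2189442 and 2648381 on the arrays labelled Ad-lipin, against 1661196 and 3242780 on the GFP arrays. It too was higher on replicate 2 in both groups, but albumin and transthyretin, the brightest markers, lead this sum. Of the 11, 8 were higher on replicate 2 in both groups, 8 had positive differences between the groups, and 0 passed in limma. Asgr1, a receptor for plasma glycoproteins on hepatocytes, had the smallest p among them, with a log2 difference of 0.77 ± 0.35 (SE; limma adjusted p = 0.962). Fewer cells of a type and less RNA per cell cannot be told apart in whole liver.

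Markers of other cells were read as well. The summed signal of 9 stellate cell and fibroblast markers was 20914 and 41106 on the arrays labelled Ad-lipin, against 39064 and 54295 on the GFP arrays, with overlap. That of 8 T and NK cell markers was 3574 and 2686 on the arrays labelled Ad-lipin, against 3733 and 4940 on the GFP arrays, with 4 of the 8 too dim to test, among them Cd3e and Cd4. The 3 B cell markers summed to 1392 and 1158 on the arrays labelled Ad-lipin, against 2107 and 2471 on the GFP arrays. T, NK and B cell sums were thus lower on both arrays labelled Ad-lipin, but not all genes behind them were. Gzmb, Nkg7 and Cd79b overlapped between the groups. Gzma, Cd8a and Cd79a were lower but passed the filter only through the GFP arrays, where they were high, so they support nothing. Cd79a read 282.8 and 219.8 on the arrays labelled Ad-lipin, against 893.9 and 1216.5 on the GFP arrays. Ms4a1 was lower on both without this limit (-0.45 ± 0.88, log2, SE). Kupffer cell and macrophage markers (11) summed to 55390 and 36357 against 57165 and 31216, and 8 endothelial markers to 21789 and 32756 against 24163 and 33494, each with the arrays labelled Ad-lipin given before the GFP arrays. The part of these cells in the transporter values was not tested.

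Related carriers, pumps and regulators gave no call either. In each of the 5 gene groups around the transporters, limma passed 0 genes higher and 0 lower, and the adjusted p of most genes named was 0.962. Of 6 other uptake carriers tested, 5 had positive differences, with a median of 0.27 on the log2 scale. Slc27a5, the bile acid CoA ligase, read 17412.5 and 36969 on the arrays labelled Ad-lipin, against 10212.5 and 23914 on the GFP arrays, a log2 difference of 0.70 ± 0.43 (SE), 0.085 without GFP replicate 1 and 1.31 without GFP replicate 2. For Slc27a5 the replicate 2 arrays were the higher in both groups, as for 4 of the 6 uptake carriers in all. The same held for 4 of 9 other efflux pumps and flippases and 6 of 15 regulators. It held for only 1 of 9 cholesterol handling genes and 1 of 10 canalicular proteins, beside 26.3% of all probe sets tested. Slc16a1, a monocarboxylate carrier, read 651 and 579.7 on the arrays labelled Ad-lipin, against 1179 and 1394 on the GFP arrays, a log2 difference of -1.06 ± 0.72 (SE). Slc22a7, an organic anion carrier, gave 0.68 ± 0.56 (log2, SE), -0.22 without GFP replicate 1 and 1.58 without GFP replicate 2.

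Other efflux pumps and flippases (9 tested) split 5 positive to 4 negative, with a median of 0.01 on the log2 scale. Abcb6, a porphyrin-linked half-transporter, read 3494 and 2979 on the arrays labelled Ad-lipin, against 2009 and 1526 on the GFP arrays, a log2 difference of 0.88 ± 0.44 (SE). Abcb1a, a drug efflux pump, differed by 1.36 ± 0.97 (log2, SE) on its tested probe set, 0.74 without GFP replicate 2 and 1.99 without GFP replicate 1. Its second probe set, too dim to test, overlapped, with 775.9 and 18.9 on the arrays labelled Ad-lipin, against 386.5 and 37.4 on the GFP arrays. Abcg2 (BCRP), a canalicular pump for drugs and conjugates, differed by 0.48 ± 0.36 (log2, SE). Both arrays labelled Ad-lipin were above both GFP arrays on the brightest probe set of these 3 genes. In this group 4 of 9 were above and 1 below, beside 17.1% and 15.9% of all probe sets tested.

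In cellular cholesterol handling, 9 genes were tested and 6 had positive differences (median 0.34, log2). Stard3, which moves cholesterol out of late endosomes, read 1470.5 and 724 on the arrays labelled Ad-lipin, against 148 and 161 on the GFP arrays, where it was close to the floor. Its fitted log2 difference of 2.74 ± 1.38 (SE) supports nothing, since Stard3 passed the filter only through the arrays labelled Ad-lipin, where it was high, with a GFP geometric mean of 154. The lysosomal cholesterol proteins went opposite ways, Npc2 at -0.59 ± 0.31 and Npc1 at 0.61 ± 0.46 (log2, SE). A second, dimmer Npc2 probe set gave -0.015.

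Of 15 tested regulators of transporter genes, 11 had positive differences, with a median of 0.20 on the log2 scale. Those with the smallest p were Ppara (2.32 ± 0.44), whose receptor lipin 1 coactivates, the hepatocyte receptor gene Hnf4a (0.95 ± 0.37 on its brightest of 4 probe sets) and Cebpa (0.75 ± 0.33), a liver-enriched transcription factor (log2, SE). The Ppara difference was 2.96 without Ad-lipin replicate 1 and 1.69 without Ad-lipin replicate 2, from signals of 5452 and 13121 on the arrays labelled Ad-lipin, against 1688 and 1695 on the GFP arrays. The brightest Hnf4a probe set stood at 0.37 without GFP replicate 2, and the other 3, which overlapped between the groups, gave 0.37, -0.033 and -0.12. None of these genes passed, with limma adjusted p of 0.660 for Ppara and 0.962 for Hnf4a and Cebpa. Nr1h3 (LXR alpha), the oxysterol receptor known to drive Abcg5 and Abcg8, read 1424 and 1406 on the arrays labelled Ad-lipin, against 1417 and 2011.5 on the GFP arrays. Nr1h3 and Nr0b2 (SHP), the FXR target that represses bile acid synthesis, were named for their roles after their values were seen. Nr0b2 read 2620.2 and 4023 on the arrays labelled Ad-lipin, against 1931 and 2665 on the GFP arrays, a log2 difference of 0.52 ± 0.44 (SE).

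Proteins that hold or deliver transporters at the canaliculus gave 7 positive and 3 negative differences (median 0.26, log2). Vps33b, which sorts apical proteins and is mutated in a human cholestasis syndrome, had 1.94 ± 1.00, 3.28 without GFP replicate 1 and 0.59 without GFP replicate 2, where its signal was 136.5. Its GFP geometric mean of 347 was under the filter, so it too was tested only through the arrays labelled Ad-lipin. Ezr, a linker to actin, had 1.32 ± 0.63, 2.48 without GFP replicate 1 and 0.16 without GFP replicate 2, and its second probe set, too dim to test, read 99.6 and 41.5 on the arrays labelled Ad-lipin, against 484 and 751 on the GFP arrays, the opposite order. Rab11a, of recycling endosomes, had -0.49 ± 0.34 (log2, SE) on its brighter probe set. The dimmer one overlapped between the groups at -1.09 ± 1.40 (log2, SE) and passed the filter only through the GFP arrays.

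**Figure D4:**
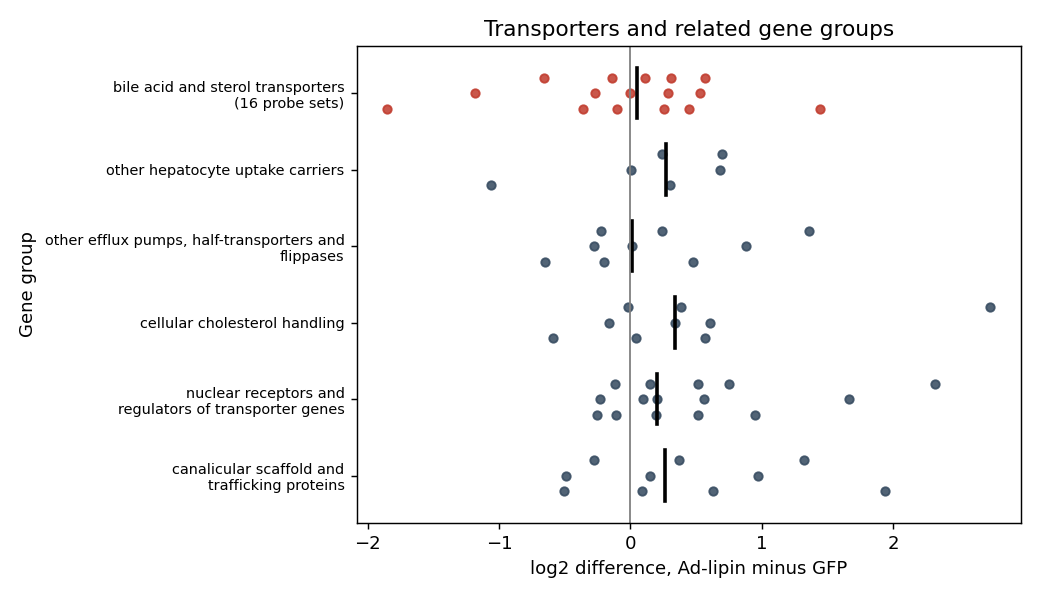
Log2 differences, Ad-lipin minus GFP, of the 16 transporter probe sets (red) and of the tested genes of 5 related groups (dark blue, each gene at its brightest tested probe set), with a black bar at each group's median. Points are spread vertically for visibility only. The medians lie between 0.01 and 0.34, and no point shown passed the limma threshold.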

How the data were processed

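The deposited intensity values are linear MAS5 signals, per the submitters' processing notes, with version and scaling target not given in the sources used here. A 2% trimmed mean of 1501 was found on every array, so no further normalization was applied. MAS5 leaves dim probe sets noisy, and detection calls were not used here. The 64 controls were dropped, signals below a floor of 119.5 (20th percentile) were set to it, and the 13576 probe sets whose geometric mean reached 373 (40th percentile) were tested with limma 3.58.1 in R 4.3.3 (lmFit, eBayes with trend; 2 residual and 12.7 prior degrees of freedom), two-sided, and adjusted over all of these by Benjamini-Hochberg. An exact test of 2 arrays against 2 cannot go below p = 0.333. Gene groups use each gene's brightest probe set. All probe sets of the transporters are named, and of each related group the 3 genes with the smallest p. The fit was run on simulated data with changes larger than any seen in the transporters, which says nothing of differences as small as theirs. Arrays were grouped by title. Alternatives were other normalizations, floors, filters and variance models, a replicate block, and leaving out each array with the floor and filter kept. Intervals are limma's, and the number of arrays limits every precision. The transporters and the lists were chosen with earlier results of these data known. Promoter sequences are RefSeq's (GRCm38.p6), matched by symbol for 9 of 10 genes, all but Abcc3. The array values name no genome build, so coordinates are given only for the promoter stretches shown.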

Additional observations from a re-analysis of the deposited data

How the results depend on the processing

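No transporter probe set passed the limma threshold under any test alternative run, and the lowest adjusted p among 205 values was 0.256, for Abcg5 with the replicate block. Of those values, 188 kept their sign. The floor at the 5th percentile left 15 of the 16 tested and the filter at the 60th percentile 14. Beside all 4 arrays, the sign turned for Slco1a1 1420379_at with quantile normalization (7.00e-06) and median centring (0.029) and for Slco1b2 1452569_at with the floor at the 30th percentile (0.069), all on the log2 scale. With each array left out in turn, 9 probe sets turned sign in at least 1 fit. Their ranges were -0.50 to 0.50 and -0.26 to 0.77 for Slco1a1, -1.40 to 1.20 for Abcc3, -0.34 to 0.066 for Abcc2, -0.091 to 0.66 for the brighter Slc10a1 probe set, -0.22 to 0.84 and -1.90 to 1.19 for Slco1b2 1449394_at and 1452569_at, -0.53 to 0.00082 for Slco1a4 and -0.15 to 0.37 for Abcb4. The transporter median ran from -0.18 to 0.51, and was 0.51 without GFP replicate 2. Over all probe sets tested, limma called 0 higher and 0 lower. With an array left out it called 0 to 7 higher and 0 to 6 lower, 7 and 6 without Ad-lipin replicate 1, 1 and 1 without GFP replicate 2, and 0 and 3 without Ad-lipin replicate 2. The fits without either array labelled Ad-lipin had infinite prior degrees of freedom, which takes each spread from the intensity trend, and the lone array was assumed to vary like the others. The same holds for the replicate block, which called 34 higher and 18 lower. The replicate numbers are not known to pair arrays, and over all probe sets tested the difference between replicates 1 and 2 correlated at 0.028 across the groups. At 1.5-fold on every pair without a test, 540 were higher and 491 lower, with 1 and 1 among the transporters. The cause of these changes was not tested. No detection calls were used, so how far a dim probe set stood above background is not known.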
